A study of Mus musculus with 6 samples.

Results

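Transgelins, calponins, tropomyosins and caldesmon are actin-binding proteins of the thin filament, and the 10 genes Tagln, Tagln2, Cnn1, Cnn2, Cnn3, Tpm1, Tpm2, Tpm3, Tpm4 and Cald1 were taken by name from a deposited table of 15238 genes. All 10 were in the table in each of 6 libraries, and the filter on low counts kept all 15238 genes, these 10 among them. The libraries are bulk RNA-seq of podoplanin-positive cells, sorted as fibroblasts (negative for CD45, EpCAM and CD31) from intestines of pups of the Balb/c strain on postnatal day 9. The 3 wild-type libraries are replicates 1, 3 and 4, and the 3 libraries of DdblGata1 pups, which lack eosinophils, are replicates 4, 9 and 10. DdblGata1 is a germline deletion of a promoter element of Gata1, so it is present in every cell of the animal and not only in eosinophils. The labels do not say whether each library came from its own pup or from pooled pups or litters, so p-values measure the spread between these libraries, which may be technical. Values are given in the order of those replicate numbers throughout, wild-type first. The series title asks whether eosinophils act on smooth muscle differentiation in the villus, and the comparison of genotypes bears on the filament genes of that cell type.

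Smooth muscle thin filaments are not switched by troponin. Tropomyosin lies along the actin filament, calponin and caldesmon bind actin and restrain myosin's ATPase until phosphorylation or calcium-bound calmodulin relieves them, and transgelin is a small calponin-related protein that bundles actin. Each family pairs genes of differentiated muscle (Tagln, Cnn1, Tpm1, Tpm2) with paralogs of wider, non-muscle expression (Tagln2, Cnn2, Cnn3, Tpm3, Tpm4). Cald1 serves both settings through a heavy smooth muscle form and light forms of other cells. Many of the muscle genes are known targets of serum response factor (SRF), which binds the CArG box.

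The Tpm1 gene shows the muscle and non-muscle choice within its own sequence. Its second coding exon exists in mutually exclusive versions of 126 bases each, and the first of the pair in gene order is the version known from smooth muscle. Both are printed because the transcript values further on turn on which is used. They were read from GENCODE M21 transcripts on GRCm38, on the minus strand, and capitals mark the 66 of 126 positions at which the letters differ (47.6% identical).

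Tpm1-215, first exon of the pair, chr9:67048124-67048249: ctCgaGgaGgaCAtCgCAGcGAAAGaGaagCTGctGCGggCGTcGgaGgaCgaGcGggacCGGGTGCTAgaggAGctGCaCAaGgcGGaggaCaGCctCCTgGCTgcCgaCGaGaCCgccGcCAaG
Tpm1-216, second exon of the pair, chr9:67047786-67047911: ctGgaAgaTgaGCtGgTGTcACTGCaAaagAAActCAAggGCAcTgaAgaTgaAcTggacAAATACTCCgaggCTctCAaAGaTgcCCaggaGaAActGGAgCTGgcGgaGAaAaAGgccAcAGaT

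Promoter windows of 250 bases before the start were on hand for 9 of the 10 genes in the RefSeq table for GRCm38.p6, and Tagln was not matched there. Both strands were searched for the CArG box, for a CArG box with one letter off, and for CATTCC, the core that TEAD factors bind, and no hits of different motifs overlapped. Cnn2 alone of the 9 had an exact CArG box, 56 bases before its start, in a window type in which 1.47% of 32851 RefSeq promoters hold one. The near match was in Tpm1 (221 and 80 bases before the start), Tpm3 and Cald1, against 17.5% of all promoters. The 9 genes had 11 windows, since Tpm3 and Cald1 each had an additional window, while the shares of all promoters count single windows. The additional window of Cald1 held no match. CATTCC was in Tagln2 (118 and 80 bases before the start), Tpm1 (56 bases) and Cald1 (153 bases), against 12.6%. These starts are RefSeq's, and GENCODE places some hits inside the gene. In GENCODE, 193 bases of the Tpm1 window are exon, among them the hits at 80 and 56 bases. GENCODE starts Tagln2 at chr1:172500047, within its window and ahead of both CATTCC hits. No match was in the windows of Cnn1, Cnn3, Tpm2 and Tpm4, which says only that these letters are not in those 250 bases. The windows of Cnn1 and Cnn2 and the outer end of that of Tpm1 are shown, each up to the first annotated exon, because Cnn1 and Tpm1 shared a library pattern that Cnn2 did not. Capitals mark the exact CArG box in Cnn2 and the near match in Tpm1.

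Cnn1, plus strand, chr9:22099003-22099215: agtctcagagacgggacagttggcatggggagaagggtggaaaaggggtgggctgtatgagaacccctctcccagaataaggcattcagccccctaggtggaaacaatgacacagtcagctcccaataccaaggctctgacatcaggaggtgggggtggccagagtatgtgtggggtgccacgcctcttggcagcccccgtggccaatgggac
Cnn2, plus strand, chr10:79988350-79988583: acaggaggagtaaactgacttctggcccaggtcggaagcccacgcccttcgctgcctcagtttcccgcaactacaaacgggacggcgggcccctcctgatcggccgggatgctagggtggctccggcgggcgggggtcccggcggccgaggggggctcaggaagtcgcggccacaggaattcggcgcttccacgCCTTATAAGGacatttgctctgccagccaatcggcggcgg
Tpm1, minus strand, chr9:67049407-67049463: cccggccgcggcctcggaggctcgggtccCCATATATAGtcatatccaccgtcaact

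The gene table held 28110454 to 31210800 estimated counts per library. The closest pair of libraries was wild-type replicate 4 and DdblGata1 replicate 4 (Pearson r 0.976 of log2 CPM), across genotypes, and the farthest was wild-type replicate 1 and DdblGata1 replicate 10 (r 0.925). Transcripts of Pdpn, the gene of the sorted antigen podoplanin, were at 26.2 to 61.1 TPM, a level scaled to transcript length and library total, lowest in wild-type replicate 1. That library also had the most Epcam, the epithelial antigen that the sort removes, at 101 TPM against 13.5 to 25.6 in the others. Ptprc, which encodes CD45, was at 0.363 to 1.96 TPM and Pecam1, which encodes CD31, at 2.32 to 5.12 TPM. Myh11, the smooth muscle myosin heavy chain and defining marker of that cell type, was present in every library at 524 to 1108 TPM, so the sorted cells were not free of smooth muscle RNA. Rgs5 of mural cells was at 402 to 715 TPM and Kit of interstitial cells of Cajal at 14.3 to 83.3 TPM, lowest in DdblGata1 replicate 4.

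Per length of transcript, Tpm2, Tpm1 and Tagln were the most abundant of the set in the mean over libraries. Mean TPM over the 6 libraries was 2221 for Tpm2, 1528 for Tpm1 and 1049 for Tagln. Cnn1 (462 TPM) and Cald1 (443 TPM) followed, and their ranges over libraries, 259 to 635 and 327 to 526, overlapped. In DdblGata1 replicate 4, Cnn1 (259 TPM) was below Tagln2 (364 TPM), Cnn3 (350 TPM), Tpm4 (344 TPM) and Cald1 (327 TPM). Cnn3 (328 TPM), Tpm4 (290 TPM) and Tagln2 (288 TPM) came next with overlapping ranges, then Cnn2 (100.4 TPM) and Tpm3 (50.0 TPM). Tpm1 and Tpm2 together supplied most tropomyosin RNA: Tpm1 held 36.8% to 38.4% and Tpm2 47.9% to 58.0% of the family's TPM in every library. Tpm4, the main non-muscle member here, took 4.24% to 13.5%, with the highest share in DdblGata1 replicate 4. Tagln made up 61.8% to 85.2% of transgelin TPM and Cnn1 35.7% to 62.8% of calponin TPM.

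No gene of the set passed edgeR's quasi-likelihood test at a Benjamini-Hochberg adjusted p of 0.05, and 0.00% of all genes did (0 of 15238; DESeq2 called 214, and edgeR's unadjusted p was under 0.05 for 645 genes in the lower and 919 in the higher direction). Fitted values were lower in DdblGata1 for 8 of the 10 genes, against 50.7% of all genes. In these bulk libraries, fewer cells of a type and less RNA per cell cannot be told apart. An unadjusted p under 0.05 was reached by 2 of 10, Tagln and Cnn2, both lower, against 4.23% of all genes in that direction, and none was higher at that p, against 6.03%. The libraries of the groups overlapped for all 10 genes, while 7.34% of all genes had every wild-type library above every DdblGata1 library and 8.98% the reverse. DESeq2 called 0 of the 10, against 0.473% of all genes lower and 0.932% higher, and 4 of the 10 had its unadjusted p under 0.05, all lower, against 5.54% of all genes lower and 6.43% higher. Taking DdblGata1 minus wild-type, the median fitted log2 fold change was -0.62 for the 4 muscle genes, all 4 lower, -0.05 for the 5 non-muscle paralogs, 3 of 5 lower, and -0.01 for all genes.

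**Figure D1:**
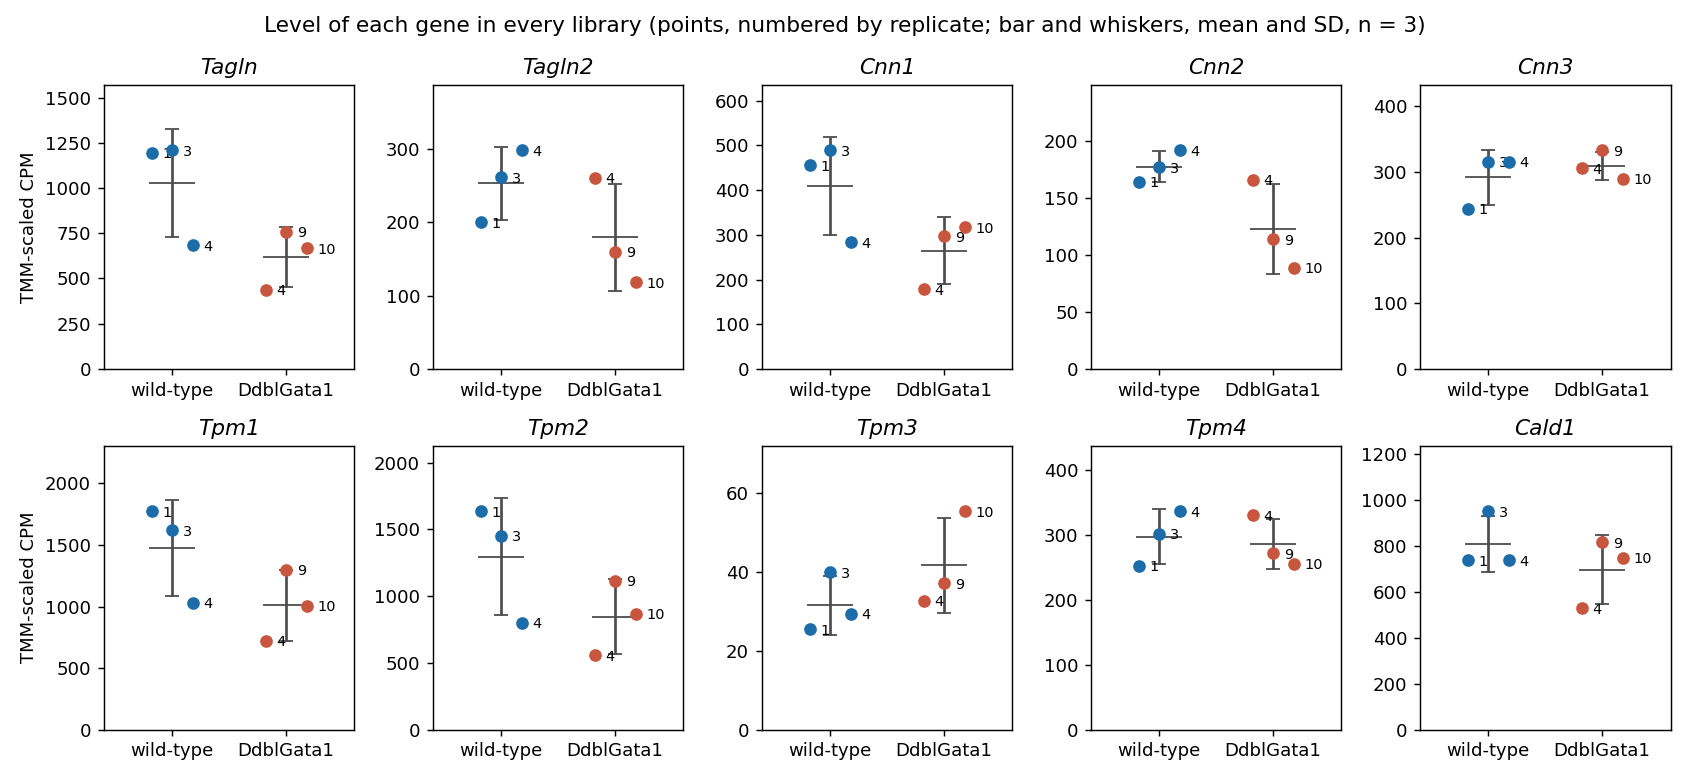
Level of each of the 10 genes in CPM (counts scaled to library size by TMM, linear axis from 0) in every library. Points are libraries numbered by replicate, and the bar with whiskers is the mean and SD of 3 libraries. Tagln, Cnn1, Tpm1 and Tpm2 are high in wild-type replicates 1 and 3 and lowest in DdblGata1 replicate 4, and the genotypes overlap in all 10 panels.

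Tagln encodes transgelin, also called SM22 alpha, an early and abundant marker of smooth muscle. Its level was 1196, 1208 and 683 CPM in wild-type and 436, 758 and 666 CPM in DdblGata1 libraries. Wild-type replicates 1 and 3 stood above all others, wild-type replicate 4 lay among the DdblGata1 libraries, and DdblGata1 replicate 4 was lowest. The means were 1029 ± 299.7 and 620.0 ± 165.8 CPM (SD, n = 3 each), a fitted log2 fold change of -0.73 ± 0.29 (SE; edgeR adjusted p = 0.474; 95% interval -1.39 to -0.07). A protein-coding gene on the opposite strand, Pcsk7, overlaps Tagln and reached at most 15.9 TPM, against 588 TPM or more for Tagln.

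Tagln2, the transgelin of non-muscle cells, gave 199.5, 261 and 298 CPM in wild-type and 260, 159 and 118 CPM in DdblGata1 libraries. Its order differed from that of Tagln: DdblGata1 replicate 4, the lowest library for Tagln, had a wild-type level of Tagln2, and replicates 9 and 10 were low. The fitted log2 fold change was -0.50 ± 0.29 (edgeR adjusted p = 0.560).

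Cnn1, the calponin of differentiated smooth muscle, was at 456, 489 and 284 CPM in wild-type and 178, 297 and 317 CPM in DdblGata1 libraries. As for Tagln, wild-type replicates 1 and 3 were high and DdblGata1 replicate 4 lowest, and wild-type replicate 4 lay below 2 of the DdblGata1 libraries. The place of DdblGata1 replicate 10 in that order depended on the table's weighting by transcript length. In plain sums of estimated counts, wild-type replicate 4 had 9327, above the 7029 of DdblGata1 replicate 10, while DdblGata1 replicates 4 and 9 had 5309 and 9340. The log2 fold change was -0.63 ± 0.28 (edgeR adjusted p = 0.486; 95% interval -1.27 to 0.0074).

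Cnn2, a calponin of many cell types including smooth muscle and leukocytes, was at 164, 177 and 192 CPM in wild-type libraries, the tightest wild-type group of the set in relation to its mean. DdblGata1 libraries had 167, 114 and 88.8 CPM, so that replicate 4 lay within the wild-type range and the other 2 below it. The log2 fold change was -0.53 ± 0.23 (edgeR adjusted p = 0.483). Cnn3, the acidic calponin of non-muscle and neural cells, was at 244, 316 and 316 CPM in wild-type and 306, 333 and 290 CPM in DdblGata1 libraries. Only wild-type replicate 1 stood apart, as the lowest, and the log2 fold change was 0.08 ± 0.16 (edgeR adjusted p = 0.854; 95% interval -0.28 to 0.45).

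Tpm1 and Tpm2 encode the alpha and beta tropomyosins that dominate muscle filaments. Tpm1 was at 1774, 1618 and 1031 CPM in wild-type and 721, 1300 and 1007 CPM in DdblGata1 libraries. For Tpm2 the values were 1637, 1451 and 800.3 CPM against 556, 1114 and 869 CPM. Both had their highest values in wild-type replicates 1 and 3 and their lowest in DdblGata1 replicate 4, and DdblGata1 replicate 9 exceeded wild-type replicate 4. The log2 fold change was -0.55 ± 0.28 for Tpm1 (edgeR adjusted p = 0.526). It was -0.61 ± 0.33 for Tpm2 (edgeR adjusted p = 0.535), with a 95% interval from -1.37 to 0.14.

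Tpm4, a short non-muscle tropomyosin of stress fibres, was at 253, 302 and 337 CPM in wild-type and 330, 272 and 256 CPM in DdblGata1 libraries. No library stood apart, and the log2 fold change was -0.05 ± 0.17 (edgeR adjusted p = 0.917; 95% interval -0.45 to 0.34). Tpm3, a tropomyosin of slow skeletal muscle that also makes short cytoplasmic forms, was the least abundant, at 25.5, 39.9 and 29.4 CPM in wild-type and 32.7, 37.1 and 55.5 CPM in DdblGata1 libraries. DdblGata1 replicate 10 was the highest, and the log2 fold change was 0.40 ± 0.25 (edgeR adjusted p = 0.576). That order was absent without the length weighting of the table: plain sums of Tpm3 estimated counts were nearly level, 1098, 1041 and 1033 for the wild-type libraries against 1030, 1067 and 996 for DdblGata1, with a log2 fold change of 0.03. Transcripts under 500 bases held 5.50%, 38.5% and 13.7% of Tpm3 TPM in wild-type, against 12.4%, 19.2% and 63.2% in DdblGata1 libraries. One of them, the retained-intron transcript Tpm3-208, alone held 45.5% in DdblGata1 replicate 10. Tpm3 values are uncertain for a further reason, since the processed copy Tpm3-rs7 shares 1663 of the 2200 stretches of 31 bases (75.6%) of the main Tpm3 transcript. The copy was listed above Tpm3 itself, at 107, 117 and 123 TPM in wild-type and 135, 111 and 101 TPM in DdblGata1 libraries, and its log2 fold change was -0.08 ± 0.14 (edgeR adjusted p = 0.850). Tpm3 and its copy summed to 141, 168 and 163 TPM against 182, 164 and 177 TPM.

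Cald1 encodes caldesmon, which bridges actin, tropomyosin and myosin. It was at 737, 952 and 738 CPM in wild-type and 528, 816 and 748 CPM in DdblGata1 libraries. Wild-type replicate 3 was the highest and DdblGata1 replicate 4 the lowest, with the other 4 between 737 and 816 CPM. The log2 fold change was -0.21 ± 0.21 (edgeR adjusted p = 0.718; 95% interval -0.70 to 0.27).

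**Figure D2:**
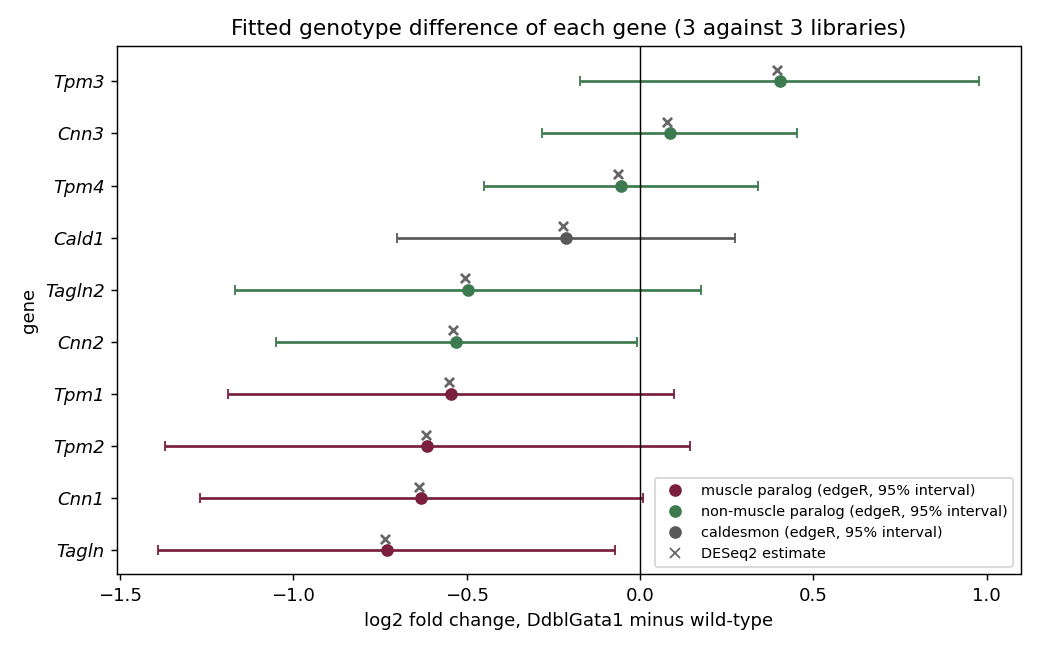
Fitted log2 fold change of each gene, DdblGata1 minus wild-type, with its 95% interval from edgeR (points and bars) and the DESeq2 estimate (crosses). The intervals of Tagln and Cnn2 end just below 0 (-0.07 and -0.0091), the other 8 include 0, and the 4 muscle genes lie between -0.73 and -0.55.

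The 10 genes fell into different library orders. Across the 6 libraries the log2 CPM of Tagln, Cnn1, Tpm1 and Tpm2 correlated with one another at Pearson r 0.943 to 0.996. Tagln2 and Cnn2 correlated with each other at r 0.968, but Tagln with Tagln2 at only 0.00103 and Cnn1 with Cnn2 at 0.0669. Cald1 stood nearer the muscle genes (r 0.771 to 0.837) and Tpm4 nearer Tagln2 (r 0.832). These are descriptions over 6 libraries that share the genotype difference and are given without a p. The lower group means of Tagln2 and Cnn2 thus came from DdblGata1 replicates 9 and 10, whereas those of the muscle genes came from high wild-type replicates 1 and 3 and a low DdblGata1 replicate 4.

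**Figure D3:**
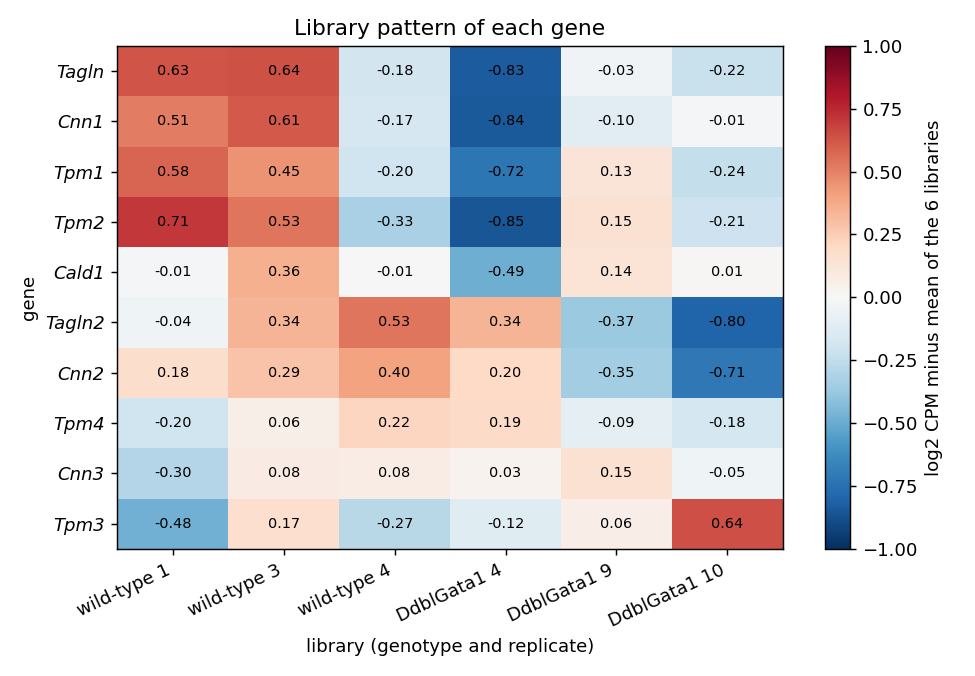
Log2 CPM of each gene minus its mean over the 6 libraries, printed in each cell and shaded from blue (low) to red (high), with libraries in columns. Tagln, Cnn1, Tpm1 and Tpm2 lie between -0.85 and -0.72 in DdblGata1 replicate 4, where Tagln2 and Cnn2 are above their means; the lowest cells of those 2 are in DdblGata1 replicate 10.

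The balance of muscle to non-muscle paralogs was compared as a log2 ratio of CPM within each library, which does not depend on scaling between libraries. With 3 against 3 libraries the smallest two-sided exact permutation p is 0.1, so none of the 7 pairs could reach 0.05, and the differences are given as sizes. The Tagln to Tagln2 ratio was 2.58, 2.21 and 1.20 on the log2 scale in wild-type libraries, against 0.75, 2.25 and 2.50 in those of DdblGata1. Both libraries numbered 4 had a low ratio and the remaining 4 a high one, and the group difference of -0.17 was within the spread (exact permutation p = 0.7). Cnn1 against Cnn2 had the same shape, at 1.47, 1.46 and 0.56 against 0.10, 1.38 and 1.84 (difference -0.06, exact permutation p = 0.8). The 1.84 of DdblGata1 replicate 10 carries the length weighting of Cnn1, and plain sums gave a difference of -0.248 (exact permutation p = 0.6). Against the steady Cnn3, Cnn1 gave 0.90, 0.63 and -0.15 in wild-type, against -0.78, -0.17 and 0.13 in DdblGata1 (difference -0.73, exact permutation p = 0.2).

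Tropomyosin ratios were lower on average in DdblGata1 in all 4 pairs. These pairs reuse the same genes, and Tpm1 and Tpm2 correlated at r 0.996, so they are not separate observations. Tpm1 to Tpm4 was 2.81, 2.42 and 1.61 against 1.13, 2.26 and 1.98 (difference -0.50, exact permutation p = 0.4). Tpm2 to Tpm4 was 2.70, 2.26 and 1.25 against 0.75, 2.04 and 1.76 (difference -0.55, exact permutation p = 0.4). Both moved with single libraries: without DdblGata1 replicate 4 the differences were -0.166 and -0.17, and without wild-type replicate 1 they were -0.231 and -0.239, while without wild-type replicate 4 they were -0.83 and -0.963. With Tpm3 as the partner the differences were -0.94 for Tpm1 and -0.995 for Tpm2 (exact permutation p = 0.1 and 0.2). Tpm1 to Tpm3 was 6.12, 5.34 and 5.129 in wild-type, against 4.46, 5.127 and 4.18 in DdblGata1 libraries, so the groups did not overlap, by a narrow margin between wild-type replicate 4 and DdblGata1 replicate 9. Plain sums of estimated counts, which leave out the length weighting, gave -0.575 and -0.654 for these Tpm3 pairs (exact permutation p = 0.3 for each), and the ratios also carry the uncertainty of the Tpm3 copy. Benjamini-Hochberg adjustment over the 7 pairs left no value under 0.467.

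The muscle genes followed the smooth muscle markers across the libraries. The summed TPM of 10 smooth muscle markers was 12753, 12310 and 8176 in wild-type, against 5821, 8942 and 6932 in DdblGata1, and 10 of 10 had a lower fitted value in DdblGata1. The actins Acta2 (2172 to 5085 TPM) and Actg2 (1704 to 4141 TPM) were the largest parts of the marker sum. Relative to that sum Tagln was nearly level, at 11.7%, 11.8% and 10.9% in wild-type, against 10.1%, 11.4% and 12.3% in DdblGata1 libraries. Tpm1 was at 15.3% to 18.8%, Tpm2 at 20.8% to 27.2% and Cnn1 at 4.46% to 6.33% (1.23-fold, 1.31-fold and 1.42-fold from lowest to highest library, against 1.22-fold for Tagln), and the groups overlapped for all 4. The highest values of Tagln and Cnn1 were in DdblGata1 replicate 10, where the short transcripts Tagln-202 and Cnn1-202 held 17.4% and 30.0% of their TPM. Tagln2, Cnn3 and Tpm4 varied about 3-fold on this scale (3.10-fold, 2.98-fold and 3.11-fold), and did not follow the markers.

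Cald1 lay higher relative to the markers in every DdblGata1 library, at 5.62%, 5.62% and 6.36%, than in wild-type libraries, at 3.30%, 4.27% and 5.41%. Tpm3, with the length weighting described above, did so too, at 0.802%, 0.589% and 1.09% against 0.264%, 0.413% and 0.497%. This held for 31.5% of all genes, since the denominator itself was lower in DdblGata1, so 2 of 10 is no more than the background. Other markers also moved between libraries. The summed TPM of 8 mural markers was 787 to 991 in wild-type and 617 to 659.6 in DdblGata1 libraries. Of the 7 mural markers in the gene table, 5 were lower in fitted value in DdblGata1. Rgs5 made up most of the mural sum, at 495.6 to 715 TPM in wild-type and 402.5 to 416 TPM in DdblGata1 libraries. Pdgfrb, another mural marker, was at 33.8, 41.6 and 49.9 TPM against 50.4, 44.4 and 41.1 TPM. The sum of 8 skeletal and cardiac muscle markers was 162 to 301.5 in wild-type and 81.1 to 131 in DdblGata1 libraries (6 of the 6 in the gene table lower in fitted value). That of 5 Cajal cell markers was lowest, at 83.9, in DdblGata1 replicate 4, against 175 to 249.6 in the others. Of the striated muscle sum, Ckm made up most, at 58.3 to 223 TPM, while the skeletal and cardiac myosins Myh1, Myh3 and Myh6 stayed at 0.666 TPM or less. The summed TPM of 5 epithelial markers was 404 in wild-type replicate 1, against 85.6 to 122.5 in the others. Fibroblast markers, 8 in number, summed to 47315 TPM in wild-type replicate 1 and 57104 to 69446 TPM elsewhere, with 2 of the 8 lower in fitted value in DdblGata1. Col3a1 was the largest part of that sum, at 24077 to 36011 TPM, and single markers differed from it. Col1a1 was at 7608, 7643 and 11382 TPM in wild-type, against 11402, 5176 and 4195 TPM in DdblGata1. Dcn was at 5443, 7099 and 7781 TPM against 8239, 8481 and 10839 TPM. The part of any of these cell types in the values of the 10 genes was not tested.

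**Figure D4:**
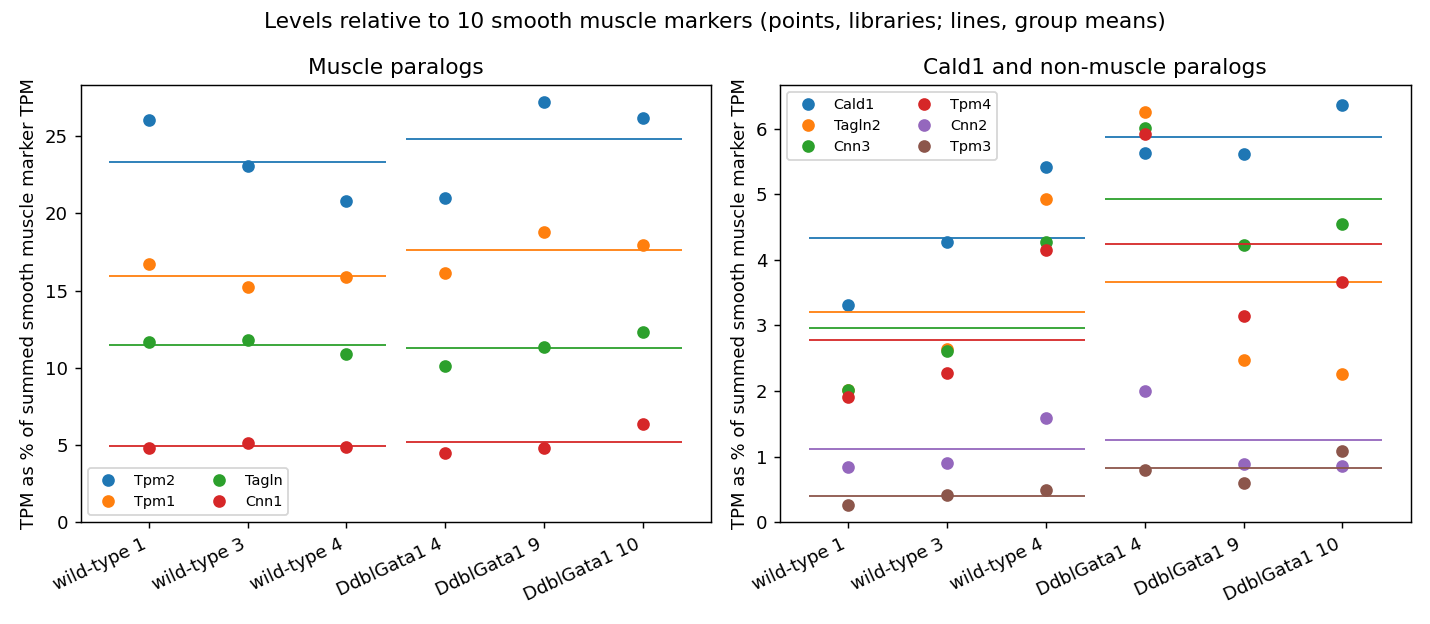
TPM of each gene as a percentage of the summed TPM of 10 smooth muscle markers (axes from 0); points are libraries and lines are group means. The muscle genes vary least, from 1.22-fold for Tagln (10.1% to 12.3%) to 1.42-fold for Cnn1, while Cald1 is higher in the 3 DdblGata1 libraries and Tagln2, Cnn3 and Tpm4 peak in DdblGata1 replicate 4.

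Transcript estimates gave the RNA forms behind each gene, named here with the length of the protein each encodes. Tpm1 RNA was carried by Tpm1-215 (284 residues, with the smooth muscle version of the exon pair printed above), Tpm1-211 (248 residues, which begins at an internal first exon at chr9:67043578-67043802) and Tpm1-216 (284 residues, with the other exon). Tpm1-215 held 50.2%, 56.5% and 50.2% of Tpm1 TPM in wild-type, against 53.9%, 43.2% and 42.0% in DdblGata1 libraries. Among transcripts with either exon of the pair, the smooth muscle version took 79.3%, 74.3% and 72.6% in wild-type, against 72.6%, 69.5% and 70.4% in DdblGata1 libraries. It was thus the main version in every library, and wild-type replicate 4 and DdblGata1 replicate 4 were alike. The short form Tpm1-211 varied from 18.9% to 35.3% with no order by genotype. The long Tpm1 forms together took 69.5% ± 6.21 of TPM in wild-type and 65.2% ± 7.65 in DdblGata1 libraries (SD, n = 3; difference -4.31 percentage points, exact permutation p = 0.5).

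Tpm2 was almost entirely Tpm2-203 (284 residues), at 99.6% to 99.7% of its TPM, and Tpm4 entirely Tpm4-201 (248 residues). For Cald1, the heavy form Cald1-205 (768 residues), the one with the full long exon at chr6:34745619-34746639, held 20.8%, 22.4% and 19.6% in wild-type, against 13.5%, 18.0% and 20.96% in DdblGata1 libraries. DdblGata1 replicate 4, the library with the least smooth muscle marker RNA, had the lowest share, and the difference of -3.44 percentage points did not exceed the spread (exact permutation p = 0.3). A fragment with an incomplete coding sequence, Cald1-210, holds part of the same exon and took 19.4% to 28.2%, so reads from that exon can be assigned to either. The light forms Cald1-203 (530 residues) and Cald1-202 (534 residues) took 19.7% to 45.9% and 12.55% to 21.4%.

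Over all genes with several transcripts, edgeR's diffSpliceDGE called a change in usage for 24 of 9448 (0.254%) and for 0 of the 8 members it could test, each with a Simes adjusted p of 1. Of 24 member transcripts with at least 5% of their gene's TPM, the shares of Cnn3-201 and Tpm2-203 lay lower in every DdblGata1 library than in any wild-type library, against 4.19% of all such transcripts. Those of Cnn3-204 and Cald1-202 lay higher, against 3.87%. Cnn3-201, the full-length calponin 3 transcript (330 residues), was at 93.0%, 86.1% and 87.05% in wild-type, against 84.6%, 65.9% and 70.0% in DdblGata1 libraries, while for Tpm2-203 the groups differed by less than 0.1 percentage points. The diffSpliceDGE test of Cnn3-201 itself gave a log2 usage difference of -0.05 (unadjusted p = 0.914).

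Some short transcripts held a share in certain libraries alone, and fragment length also differed between libraries. The mean fragment was 364, 329 and 364 bases in wild-type and 363, 341 and 326 bases in DdblGata1 libraries. The 369-base fragment Tagln-202 took 11.4% of Tagln TPM in wild-type replicate 3 and 9.46% and 17.4% in DdblGata1 replicates 9 and 10, the libraries with shorter fragments, and was listed at 0 in the other 3. Cnn1-202, of 370 bases, took 15.4% and 30.0% in wild-type replicate 3 and DdblGata1 replicate 10 alone. Cnn3-205, of 481 bases, took 6.14%, 0 and 0.952% of Cnn3 TPM in wild-type, against 0, 12.8% and 7.02% in DdblGata1 libraries. It did not follow fragment length in wild-type, with its highest share in replicate 1 (364 bases) and 0 in replicate 3 (329 bases). Tagln2-204, of 369 bases, took 10.2% of Tagln2 TPM in wild-type replicate 3 and was listed at 0 in all other libraries, DdblGata1 replicates 9 and 10 included. The gene table weights counts by transcript length, and plain sums of estimated counts gave a log2 fold change of -0.83 for Cnn1 (edgeR adjusted p = 0.329), -0.80 for Tagln (adjusted p = 0.335), -0.11 for Cnn3 and 0.03 for Tpm3. The part of fragment length in the genotype difference was not tested.

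**Figure D5:**
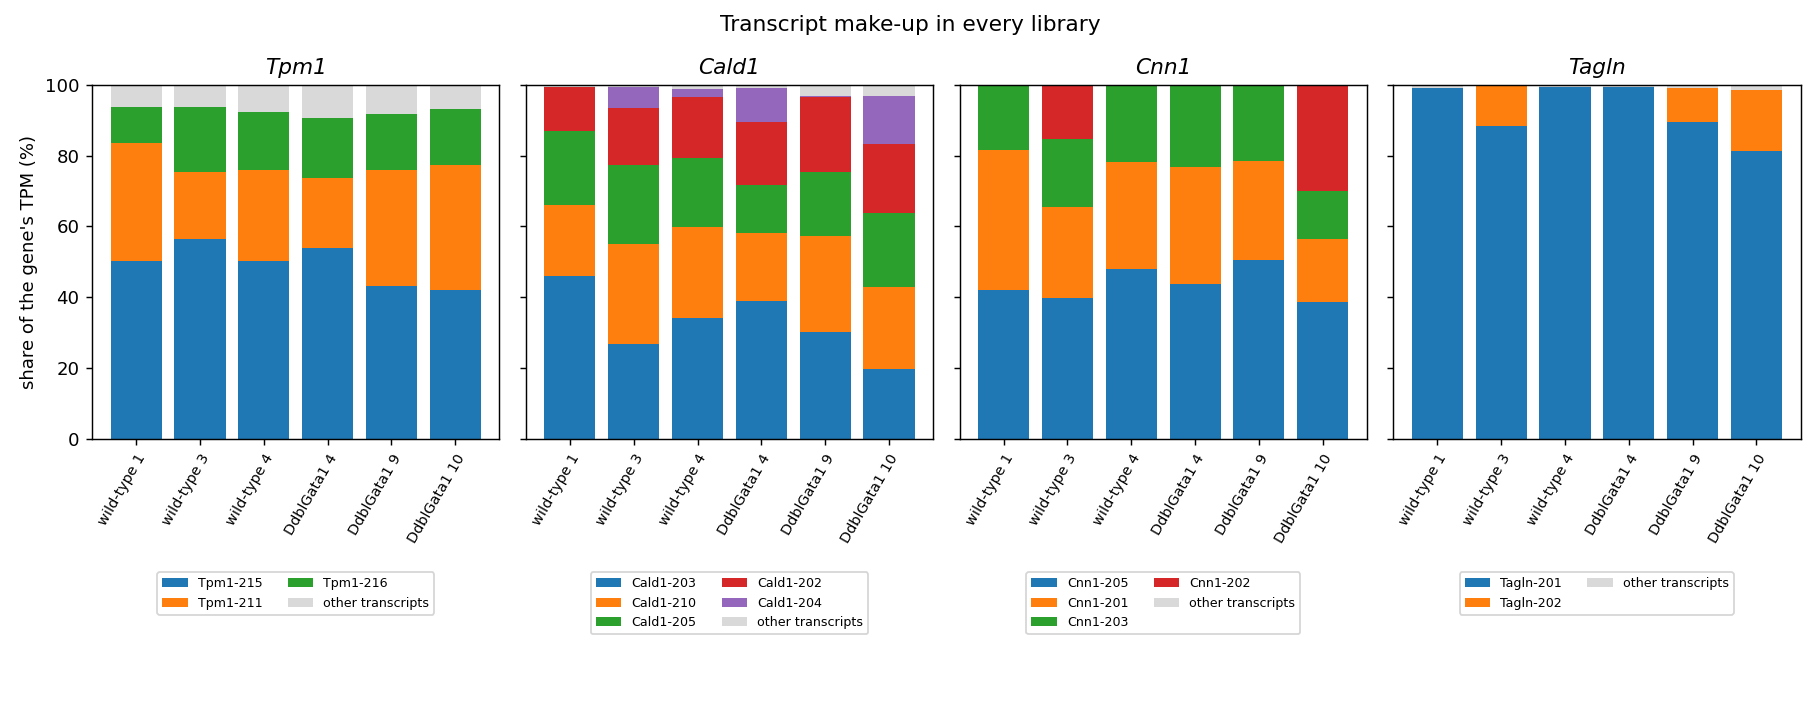
Share of each gene's TPM carried by its main transcripts (stacked bars to 100%) in the 6 libraries for Tpm1, Cald1, Cnn1 and Tagln. Tpm1-215 is the largest part of Tpm1 in every library, and Cald1-205 is smallest in DdblGata1 replicate 4. The short fragment Cnn1-202 appears only in wild-type replicate 3 and DdblGata1 replicate 10, and Tagln-202 only in those and in DdblGata1 replicate 9.

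The partners of these proteins were read from lists chosen with earlier results known. Of 18 smooth muscle contractile genes, 18 had a lower fitted value in DdblGata1 (median log2 fold change -0.68), 13 of them with an unadjusted edgeR p under 0.05, and edgeR called 0. DESeq2 called 4, all lower, namely Actn1, Des, Flna and Synm. For this and the other lists, the shares of all genes are the background. Of all genes, 50.7% were lower in fitted value, with 4.23% lower and 6.03% higher at an unadjusted edgeR p under 0.05. DESeq2 called 0.473% of all genes lower and 0.932% higher. The most abundant of the 18 were Myl6, an essential myosin light chain (log2 fold change -0.77 ± 0.24, edgeR adjusted p = 0.416), the actins Acta2 (-0.80 ± 0.26, adjusted p = 0.436) and Actg2 (-0.79 ± 0.27, adjusted p = 0.438), and Myl9, the regulatory light chain (-0.80 ± 0.27, adjusted p = 0.444). Their fitted differences, -0.80 to -0.77, lay near the -0.73 of Tagln. Of 9 cytoplasmic actomyosin genes, 7 were lower (median -0.21), 1 of them with an unadjusted p under 0.05 and 0 called by either tool. The most abundant, Actb, gave -0.34 ± 0.20 (edgeR adjusted p = 0.563) and Actg1 -0.21 ± 0.18 (adjusted p = 0.680).

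Of 25 genes for filament ends, troponins and turnover, 21 were in the table, 14 lower and 7 higher (median -0.21), with 3 lower and 1 higher at an unadjusted edgeR p under 0.05. DESeq2 called 1, Neb, higher in DdblGata1, at only 0.172 to 3.84 CPM. The most abundant were Calm2, Pfn1, Cfl1 and Calm3, with log2 fold changes of -0.23, -0.49, -0.27 and -0.42 and edgeR adjusted p of 0.640, 0.483, 0.560 and 0.4445. SRF and its cofactors, 4 genes, were all lower in fitted value. Srf was at 85.4, 67.2 and 66.8 CPM in wild-type and 48.1, 43.5 and 34.97 CPM in DdblGata1 libraries (log2 fold change -0.79 ± 0.18, edgeR adjusted p = 0.384, DESeq2 adjusted p = 0.0146). Its groups did not overlap, which held for 7.34% of all genes in that direction. Myocd, the muscle cofactor, gave -0.39 ± 0.24 (edgeR adjusted p = 0.570), Mkl1 -0.08 ± 0.15 and Mkl2 -0.01 ± 0.17. Srf was lowest in DdblGata1 replicate 10 and the muscle members in DdblGata1 replicate 4, and a link between Srf and these genes was not tested. Tagln3, the neuronal transgelin outside the set, was at 1.10 to 1.97 CPM (log2 fold change -0.01 ± 0.40).

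The genes whose library pattern was most like Tagln, among 5308 genes with a mean log2 CPM of at least 5, were Pcp4l1 (Pearson r 0.994), Enpep (0.991), Tspan2 (0.991), Synpo2 (0.989) and Atp2a3 (0.986) over the 6 libraries. For Cnn1 they were Pcp4l1 (0.988), Dstn (0.986), Pygb (0.982), Tspan2 (0.981) and Synpo2 (0.980). Pcp4l1, the closest to both, was at 164, 167 and 90.7 CPM in wild-type and 54.97, 109 and 96.6 CPM in DdblGata1 libraries.

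How far the 10 genes passed a test depended on which libraries and covariates entered. Without both libraries numbered 4, 6 of the 10 had an unadjusted edgeR p under 0.05, all lower, against 6.84% of genes, and none was called (the lowest adjusted p was 0.330). That fit has only 2 libraries per group and was added after seeing the data, so its count is a description. With the 2 surrogate variables that the authors deposited as covariates, made by a method that no source used here states, DESeq2 called 4 of the 10 lower, against 1.54% of all genes called lower and 1.41% higher. These were Tagln (log2 fold change -0.89, adjusted p = 9.32e-05), Cnn1 (-0.86, adjusted p = 2.51e-05), Tpm1 (-0.65, adjusted p = 0.00947) and Tpm2 (-0.74, adjusted p = 0.00459), while edgeR with the same covariates called 0 (the lowest adjusted p was 0.104, for Cnn1) and had 7 of the 10 at an unadjusted p under 0.05, against 6.04% of genes. If genotype was held fixed when those variables were estimated, p-values from fits that use them are too small, and no label or file header says whether it was. Leaving out DdblGata1 replicate 4, DESeq2 instead called Tagln2 (-0.87, adjusted p = 0.0134) and Cnn2 (-0.82, adjusted p = 0.00127), against 3.20% of genes called lower. Leaving out wild-type replicate 4, it called Tagln alone (-0.95, adjusted p = 0.050, just under the threshold), against 0.545%.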

How the data were processed

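RNA from 6 sorted samples (3 wild-type, 3 DdblGata1) was made into stranded libraries from 100 ng of total RNA, per the labels' protocols. Per the submitters' processing notes, the tools were kallisto, DESeq2, R 4.2.2 and bcl2fastq 2.2 and the builds GRCm38.p6 and mm10, with no role stated for each. The authors deposited a gene table of expected (estimated) counts rounded to whole numbers, where each gene reaches 10 counts in 3 libraries or more. The deposited transcript files give estimated counts, TPM and other values, namely transcript and effective lengths in bases, per the file headers. Of the gene table's values, 99.7% matched TPM scaled by transcript length to the library total, within 1% plus 1 count, and 26.2% matched plain sums. A deposited sheet adds, per the file headers, each library's size factor (a ratio) and 2 surrogate variables (a score).

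Genes were tested with edgeR 4.0.16 in R 4.3.3 (TMM, robust quasi-likelihood fit, no covariate; filterByExpr kept all genes), adjusted by Benjamini-Hochberg over all 15238 genes at 0.05; DESeq2 1.42.0 and limma 3.58.1 (voom) were alternatives. Fold changes are log2, DdblGata1 minus wild-type, with SE. Ratios of log2 CPM (prior count 2) and long-form shares of TPM were compared by exact two-sided permutation tests over libraries with SciPy 1.17.1. Usage was tested with diffSpliceDGE, and the models were tested on simulated counts. GENCODE M21 placed 113580 of 115270 transcripts and 15232 of the table's genes; promoters are RefSeq's. Levels are CPM or, between genes, TPM. The 10 members and the lists were chosen with earlier results of these data known. Named besides the 10 genes are their transcripts with at least 5% of TPM, the 5 genes most correlated with Tagln and with Cnn1, and up to 4 most abundant genes per list. Chosen after their values were seen were those DESeq2 called, the remaining SRF cofactors, the striated muscle markers and the mural marker Pdgfrb. So were the fibroblast markers Col3a1, Col1a1 and Dcn and the short Cald1, Cnn1, Cnn3, Tagln and Tagln2 fragments. Alternatives were other scalings and filters, a prior count of 0.5, plain sums, the surrogate variables and leaving out each library in turn; DESeq2 with the surrogate variables or without each library, edgeR without both libraries numbered 4, and ratios from plain sums were added after seeing the data.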

Additional observations from a re-analysis of the deposited data

How the results depend on the processing

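No paired analysis was possible because the groups share only the replicate number 4. edgeR called 0 to 1 genes over all genes with one library left out. DESeq2 called 214, and 449 with the surrogate variables; without wild-type replicate 1, 3 or 4 it called 106, 239 and 165, and without DdblGata1 replicate 4, 9 or 10, 1025, 84 and 43. Of the 10 members, DESeq2 called 4 with the surrogate variables, 1 when wild-type replicate 4 was left out, 2 when DdblGata1 replicate 4 was, and 0 under the remaining alternatives. The count of members at an unadjusted p under 0.05 was 0 to 4 with one library left out (0 without wild-type replicate 3), 4 with DESeq2, 7 with the surrogate variables in either tool and 6 without both libraries numbered 4; in DESeq2 it was 3, 1 and 4 without wild-type replicate 1, 3 or 4 (the 1 being Tpm3, higher) and 2, 4 and 2 without DdblGata1 replicate 4, 9 or 10. Usage was called for 0 genes with a 10% share filter, 47 with the F test and 2 to 70 with one library left out.

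Of the 10 genes, 8 kept the direction of their fitted log2 fold change under all alternatives, and Cnn3 and Tpm4 did not. Cnn3 was at -0.108 with plain transcript sums, at -0.0524 with edgeR and -0.0426 with DESeq2 without wild-type replicate 1, and over libraries left out it ran from -0.0524 to 0.146. Tpm4 was at 0.0445 (edgeR) and 0.0451 (DESeq2) without wild-type replicate 4 and at 0.0038 and 0.0106 without DdblGata1 replicate 10, with a range of -0.181 to 0.0445. edgeR without one library gave -0.955 to -0.531 for Tagln, -0.839 to -0.415 for Cnn1, -0.789 to -0.354 for Tpm1, -0.881 to -0.386 for Tpm2, -0.865 to -0.283 for Tagln2, -0.812 to -0.357 for Cnn2, -0.362 to -0.0485 for Cald1 and 0.126 (without DdblGata1 replicate 10) to 0.606 for Tpm3, which was at 0.104 with the surrogate variables and 0.0334 with plain sums. The Tagln to Tagln2 difference ran from -0.567 to 0.375 (0.125 without wild-type replicate 1, 0.375 without DdblGata1 replicate 4) and that of Cnn1 to Cnn2 from -0.426 to 0.443 (0.0921 and 0.0888 without wild-type replicate 1 or 3, 0.443 without DdblGata1 replicate 4). The Tpm1 to Tpm4 difference ran from -0.83 to -0.166, Tpm2 to Tpm4 from -0.963 to -0.17, Tpm1 to Tpm3 from -1.21 to -0.644, Tpm2 to Tpm3 from -1.29 to -0.652 and Cnn1 to Cnn3 from -1.04 to -0.477. From plain sums the Tagln to Tagln2 difference was -0.251 and that of Cnn1 to Cnn2 -0.248. The causes were not tested, and how far depth limits the precision was not tested.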
